A study of Mus musculus with 6 samples.

Results

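The genes described here encode the muscle acetylcholine receptor and the proteins that cluster it under the motor nerve. They are the receptor subunit genes Chrna1, Chrnb1, Chrnd, Chrng and Chrne, and the clustering genes Musk, Lrp4, Dok7, Rapsn and Agrn. They were chosen by symbol, and all 10 were found, each with 1 probe set, among the 22180 genes tested. Expression was measured on single-colour microarrays, with 1 array for each of 6 samples of total RNA. A group of 3 Pax7-GFP samples came from mouse embryonic stem (ES) cell lines that had been taken through 3 weeks of myogenic differentiation and sorted for green fluorescence from a Pax7 reporter. The other group was 3 samples of undifferentiated ES cells, which are pluripotent. The labels name neither the lines nor the number of clones, and do not say whether the ES cells passed through the sorter. Values are log2 signals after RMA (robust multi-array average), and 3 arrays a group limit how precise any difference can be.

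The acetylcholine receptor of skeletal muscle is a ring of subunits around a cation channel that opens when the motor nerve releases acetylcholine. In fetal muscle the ring holds a pair of alpha subunits with beta, delta and gamma, and after birth, in innervated fibres, epsilon takes the place of gamma. Agrin from the nerve binds Lrp4, which activates the receptor tyrosine kinase MuSK with the help of the adaptor Dok7, and the scaffold protein rapsyn then packs receptors into clusters. Genes of the receptor are also switched on in muscle precursors as they differentiate, before any nerve arrives, by muscle transcription factors that bind E-boxes.

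The sorted samples carried high signals of 4 of the 5 receptor subunits and of Musk, while the adult subunit lay below the array medians in both groups. Chrna1, Chrnb1, Chrnd, Chrng, Musk and Rapsn rose, which makes 6 of the 10 genes higher, 0 lower and 4 not called (limma, where a call needs a 2-fold difference and an adjusted p below 0.05). At an unadjusted p under 0.05 in limma, 8 were higher and 1 lower, where 5127 and 5304 of all 22180 genes tested were. Counts at this unadjusted threshold given below for lists of genes are to be set beside these. Over all genes tested, 14.5% were called, 7.34% as higher and 7.15% as lower in Pax7-GFP cells. The median log2 fold change of the 10 genes was 1.98, against 0.024 over all genes. An adjusted p below 0.05, whatever the fold, was reached by 9 of the 10 genes and by 41.1% of all genes. The 3 Pax7-GFP arrays lay above the 3 ES arrays for 8 of the 10 genes and below them for 1, where 26.2% and 25.6% of all genes were arranged in these ways. Each array pooled many cells, so more cells with a transcript and more transcript per cell cannot be told apart.

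Markers of the sorted cells were read first. All 6 skeletal muscle markers measured (Pax7, Myf5, Myod1, Myog, Des and Actc1) rose, with a mean log2 level of 10.99 to 11.22 on the Pax7-GFP arrays and 5.95 to 6.07 on the ES arrays, and all 5 pluripotency markers fell. The cells were sorted on a Pax7 reporter, so the rise of Pax7 is no check of their identity. Of 5 fibroblast markers, 3 were also higher, as given below. Array medians over the whole table lay between 5.61 and 5.69. The table carries no detection calls, and a signal near these medians cannot be read as absence of the transcript.

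**Figure D1:**
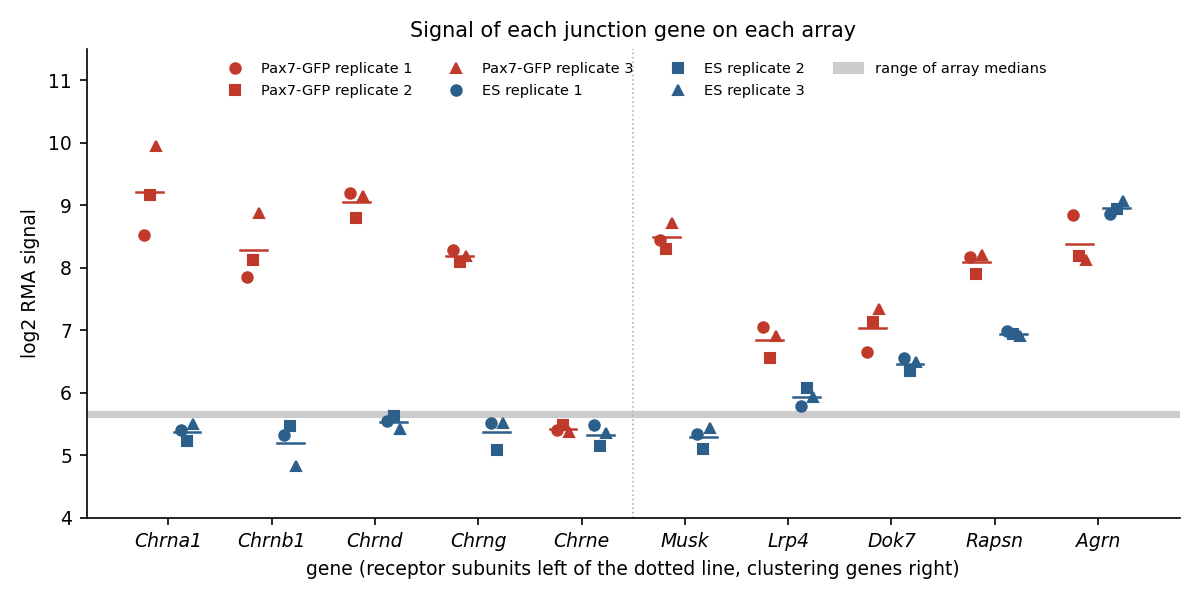
Log2 RMA signal (vertical axis) of each of the 10 genes (horizontal axis) on every array, Pax7-GFP in red at the left of each pair and ES in blue at the right, with a bar at the mean of 3 arrays and a grey band over the range of array medians. Chrna1, Chrnb1, Chrnd, Chrng and Musk stand between 7.86 and 9.96 on the Pax7-GFP arrays and between 4.82 and 5.62 on the ES arrays, whereas Chrne stays between 5.15 and 5.48 on all 6 arrays.

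Chrng, probe set 17215208, encodes the gamma subunit of the fetal receptor. Its log2 signal was 8.28, 8.09 and 8.20 on the Pax7-GFP arrays, against 5.52, 5.08 and 5.52 on the ES arrays. The groups lay far apart, with 2.57 between the lowest Pax7-GFP array and the highest ES array. Chrng rose by 2.82 on the log2 scale (SE 0.13), or 7.04-fold with a 95% interval of 5.70 to 8.69 (limma, adjusted p = 9.79e-07).

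Chrne, probe set 17265285, encodes the epsilon subunit of the adult receptor. Its signal was 5.41, 5.48 and 5.37 on the Pax7-GFP arrays, against 5.48, 5.15 and 5.36 on the ES arrays. The groups overlapped, and every value lay below the array medians. Chrne differed by 0.093 on the log2 scale (limma, SE 0.10, adjusted p = 0.537), with a 95% interval of -0.14 to 0.33. The interval covers the signal alone, since the probe set is not shown to be above background and RMA compresses differences there. In RefSeq's gene order another gene, 4930544D05Rik, overlaps Chrne, and the table does not say which transcript the probes read.

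The changes of the fetal and the adult subunit were set against each other within each array. Chrng minus Chrne was 2.87, 2.61 and 2.83 on the log2 scale on the Pax7-GFP arrays, against 0.041, -0.063 and 0.16 on the ES arrays. The means were 2.77 ± 0.14 in Pax7-GFP and 0.046 ± 0.11 in ES cells (SD, n = 3 each), and the groups did not overlap. The difference in signal between the groups was thus 2.72 larger for Chrng than for Chrne. The two-sided exact permutation test gave p = 0.1, the smallest p that 3 arrays against 3 allow. Chrne on all 6 arrays and Chrng on the ES arrays lay below the array medians, where neither probe set is shown to be above background, so 2.72 is a difference of signals and not a ratio of transcripts.

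The sequences just before the transcription start are shown for Chrng, Chrne and Chrna1, because Chrng and Chrna1 rose and Chrne was not called. Each line is the 250 bases before a RefSeq start (GRCm38.p6), 5′ to 3′ on the gene's strand, in lower case. For Chrne the start used lies inside the gene's RefSeq span, so the last bases of its line do too. Distances are counted from the start used. Capitals mark E-boxes (CANNTG, which reads as an E-box on both strands) and, in Chrne, the N-box (CCGGAA or its reverse complement TTCCGG), the core recognised by ETS factors at synaptic nuclei. No E-box here overlaps an N-box.
Chrng, chr1:87205561-87205810, plus strand: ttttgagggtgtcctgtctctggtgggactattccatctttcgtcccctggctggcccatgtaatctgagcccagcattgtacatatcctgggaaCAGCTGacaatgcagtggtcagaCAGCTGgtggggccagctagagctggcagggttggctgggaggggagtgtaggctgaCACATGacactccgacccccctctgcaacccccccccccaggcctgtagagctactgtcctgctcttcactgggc
Chrne, chr11:70619195-70619444, minus strand: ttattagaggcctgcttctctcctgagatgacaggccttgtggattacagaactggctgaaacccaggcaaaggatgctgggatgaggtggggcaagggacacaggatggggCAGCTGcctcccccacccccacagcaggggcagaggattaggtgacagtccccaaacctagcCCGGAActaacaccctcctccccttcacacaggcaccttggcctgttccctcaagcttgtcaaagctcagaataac
Chrna1, chr2:73580339-73580588, minus strand: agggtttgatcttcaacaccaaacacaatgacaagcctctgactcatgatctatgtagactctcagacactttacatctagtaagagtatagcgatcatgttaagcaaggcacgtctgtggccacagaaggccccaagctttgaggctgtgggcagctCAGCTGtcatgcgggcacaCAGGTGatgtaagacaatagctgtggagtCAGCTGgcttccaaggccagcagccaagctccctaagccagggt

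The Chrng window held 3 E-boxes, starting 155, 132 and 75 bases before the start, of which the first 2 were CAGCTG. The Chrna1 window also held 3, at 92, 73 and 44 bases, 2 of them CAGCTG and 1 CAGGTG. The Chrne window held 1 E-box, CAGCTG at 138 bases, and 1 N-box, CCGGAA at 76 bases. Among the 32851 RefSeq windows of this length, 66.2% held at least 1 E-box, 12.2% held at least 3 and 1.26% held at least 2 CAGCTG, while 12.03% held an N-box. Musk and Chrnb1, which also rose, had 3 E-boxes each, with 1 CAGCTG in Musk and 1 CAGGTG in Chrnb1. Windows were matched for 7 of the 10 genes, 9 windows in all, and 7 of these 9 held an E-box. Those without one were 1 of the 2 windows of Agrn and 1 of the 2 of Dok7. Not all windows lie outside their gene. In RefSeq coordinates the Musk window, each Dok7 window and the Agrn window with an E-box lie mostly or wholly inside the gene. The E-boxes of these windows are inside the gene too. The windows of Chrnb1 and Chrne and the other Agrn window overlap the edge of their gene. Windows of Chrnd, Lrp4 and Rapsn were not used here. A match of letters is a description of the sequence and shows no binding.

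Chrna1, probe set 17386557, encodes the alpha subunit, which carries most of the acetylcholine binding site. Its signal was 8.53, 9.16 and 9.96 on the Pax7-GFP arrays, against 5.40, 5.22 and 5.50 on the ES arrays. All Pax7-GFP arrays were high, but they spread over 1.42 among themselves. The log2 fold change, 3.84 (SE 0.30), was the highest of the 10 genes, at 14.3-fold with a 95% interval of 8.83 to 23.3 (limma, adjusted p = 2.02e-05). RefSeq has a gene, Gm30940, overlapping Chrna1.

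Chrnd, probe set 17215192, encodes the delta subunit and lies directly before Chrng in RefSeq's gene order. Its signal was 9.19, 8.81 and 9.15 on the Pax7-GFP arrays, against 5.55, 5.62 and 5.42 on the ES arrays. The groups were separated by 3.18, the widest gap among the 10 genes. Chrnd rose by 3.52 on the log2 scale (SE 0.12), or 11.44-fold (limma, adjusted p = 1.76e-07).

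Chrnb1, probe set 17264946, encodes the beta subunit, which fetal and adult receptors share with alpha and delta. Its signal was 7.86, 8.12 and 8.87 on the Pax7-GFP arrays, against 5.32, 5.46 and 4.82 on the ES arrays. Replicate 3 was the highest Pax7-GFP array and also the lowest ES array, and the groups did not overlap. Chrnb1 rose by 3.08 on the log2 scale (SE 0.26), or 8.46-fold (limma, adjusted p = 3.27e-05). All 4 components of the fetal receptor thus rose, by 7.04- to 14.3-fold in signal. None of their ES values lay above the range of array medians, so these folds are also against signals not shown to be above background.

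Musk, probe set 17414385, encodes the receptor kinase that starts the postsynaptic specialisation. Its signal was 8.44, 8.30 and 8.72 on the Pax7-GFP arrays, against 5.35, 5.10 and 5.43 on the ES arrays. The groups lay 2.87 apart. Musk rose by 3.20 on the log2 scale (SE 0.13), or 9.16-fold with a 95% interval of 7.41 to 11.3 (limma, adjusted p = 5.37e-07).

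Lrp4, probe set 17373283, encodes the receptor of agrin. Its signal was 7.06, 6.56 and 6.92 on the Pax7-GFP arrays, against 5.79, 6.08 and 5.93 on the ES arrays. The groups did not overlap, but the log2 fold change of 0.91 (limma, SE 0.14, adjusted p = 0.000971) was below the 2-fold minimum. Its 95% interval, 0.59 to 1.24, spans that minimum, and without Pax7-GFP replicate 2, the lowest of its group, Lrp4 was called at 1.05 (adjusted p = 0.000241).

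Dok7, probe set 17436810, encodes the adaptor that binds MuSK inside the cell and stimulates it. Its signal was 6.65, 7.13 and 7.34 on the Pax7-GFP arrays, against 6.56, 6.35 and 6.49 on the ES arrays. Only 0.091 separated the lowest Pax7-GFP array from the highest ES array. Its log2 fold change was 0.57 (limma, SE 0.17, adjusted p = 0.0237), below 2-fold. Over 14 alternatives in scaling, filtering, model or arrays it lay between 0.42 and 0.77. In 6 of them the adjusted p was not under 0.05, among these the fits that left out any 1 array other than Pax7-GFP replicate 1.

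Rapsn, probe set 17373144, encodes rapsyn, the scaffold that binds the receptor directly. Its signal was 8.18, 7.90 and 8.20 on the Pax7-GFP arrays, against 6.99, 6.95 and 6.91 on the ES arrays. The groups did not overlap, and both stood well above the array medians. Rapsn rose by 1.15 on the log2 scale (SE 0.10), or 2.22-fold (limma, adjusted p = 3.80e-05), with a 95% interval of 0.91 to 1.38 that includes the 2-fold minimum. RefSeq has a gene, Gm13778, overlapping Rapsn.

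Agrn, probe set 17433977, encodes agrin, a proteoglycan of basement membranes with nerve-derived splice forms that cluster receptors and other forms that do so weakly. Its signal was 8.85, 8.19 and 8.13 on the Pax7-GFP arrays, against 8.86, 8.95 and 9.07 on the ES arrays. The Pax7-GFP arrays were lower, but replicate 1 was only 0.011 below the lowest ES array. The log2 fold change was -0.57 (limma, SE 0.18, adjusted p = 0.0362), short of 2-fold. Over the same 14 alternatives it lay between -0.80 and -0.44. In 7 of them the adjusted p was not under 0.05, again among these the fits without any 1 array other than Pax7-GFP replicate 1. One probe set cannot separate the splice forms, and RefSeq has a gene, Gm46878, overlapping Agrn.

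**Figure D2:**
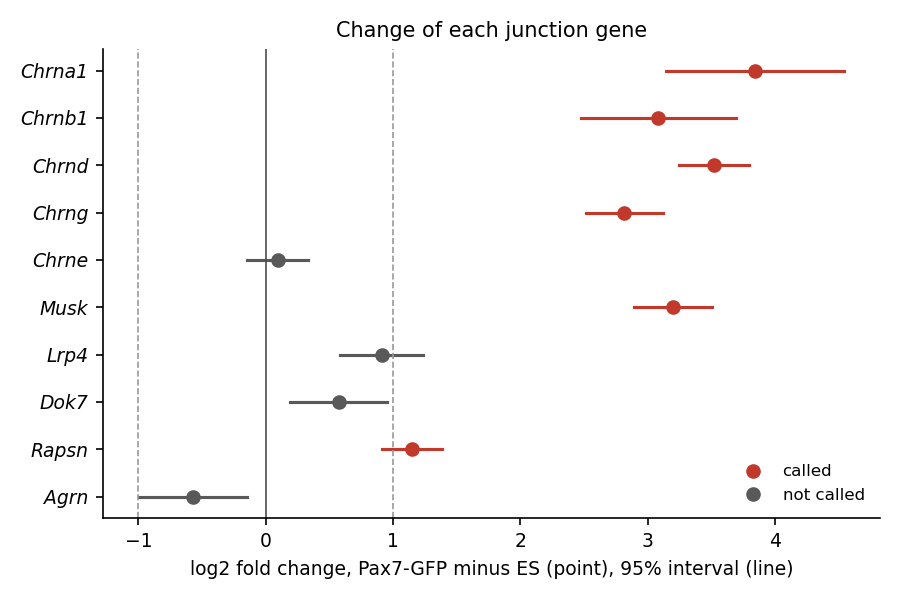
Log2 fold change, Pax7-GFP minus ES (horizontal axis), of each of the 10 genes (vertical axis), with the point at the estimate and the line over its 95% interval from limma (3 arrays a group). Red marks called genes, and dashed lines mark 2-fold: the 4 fetal subunits and Musk stand between 2.82 and 3.84, Rapsn at 1.15, Lrp4 and Dok7 between 0 and 1, Chrne at 0.093 and Agrn at -0.57.

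In order of fold change the genes ran Chrna1, Chrnd, Musk, Chrnb1, Chrng, Rapsn, Lrp4, Dok7, Chrne and Agrn. The 95% intervals of neighbours in this order overlapped except between Chrng and Rapsn, 1.67 apart, and between Chrne and Agrn, 0.66 apart. Chrng, the lowest of the 5 genes at the top, was exceeded in log2 fold change by 1.03% of all genes tested, and Chrna1 by 0.392%. Of the clustering genes 2 of 5 were called higher, with a median log2 fold change of 0.91, and of the receptor subunits 4 of 5, with a median of 3.08. The difference between these sets was not tested.

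The genes differed in how far the 3 Pax7-GFP arrays agreed. Chrng and Chrne had the smallest spreads, with SDs of 0.097 and 0.059, where the median gene had 0.14. Chrna1 had an SD of 0.71, larger than that of 99.6% of all genes, and Chrnb1 one of 0.53, larger than that of 98.3%. Replicate 3 was the highest and replicate 1 the lowest Pax7-GFP array for Chrna1, Chrnb1 and Dok7, by 0.74 above and 0.68 below the mean for Chrna1. Agrn showed the other arrangement, with replicate 1 the highest, 0.46 above the mean. Without single arrays the log2 fold change of Chrna1 lay between 3.47 and 4.18 and that of Chrnb1 between 2.79 and 3.29.

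**Figure D3:**
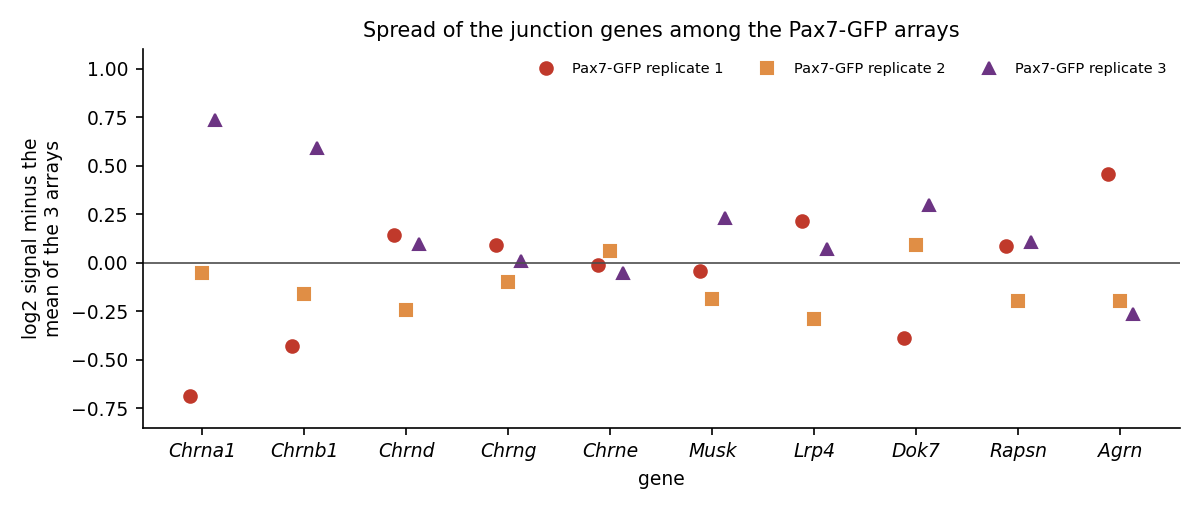
Log2 signal of each Pax7-GFP array minus the mean of the 3 Pax7-GFP arrays (vertical axis) for each of the 10 genes (horizontal axis). Symbols stand for the 3 replicates, which spread from -0.68 to 0.74 for Chrna1 and from -0.10 to 0.093 for Chrng.

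Marker lists were also read array by array. The mean log2 level of the 6 skeletal muscle markers was 11.13, 10.99 and 11.22 on Pax7-GFP replicates 1, 2 and 3, against 6.07, 5.96 and 5.95 on the ES arrays. They had no common order, since Pax7, Myog and Actc1 were highest on replicate 3 and Myf5, Myod1 and Des on replicate 1. Of 5 fibroblast markers, 3 were higher and 0 lower (limma, 5 higher and 0 lower at an unadjusted p under 0.05), and their mean log2 level was 8.36, 8.13 and 7.92 on the Pax7-GFP arrays, against 6.27, 6.48 and 6.57 on the ES arrays. Replicate 1 was the highest Pax7-GFP array for 4 of these 5, and replicate 3 for Col3a1. Of 4 endothelial markers, 1 was higher and 1 lower, and their mean level was 5.68, 5.80 and 5.63 on the Pax7-GFP arrays, against 6.09, 6.12 and 6.12 on the ES arrays. Cdh5, the higher one, was highest on replicate 1, where the other 3 (Pecam1, Kdr and Tek) were lowest. The part of these markers in the spread of Chrna1, Chrnb1, Dok7 and Agrn was not tested.

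Related receptors were read next, beside the 14.5% of all genes that were called. Among 11 neuronal nicotinic subunits limma found 0 higher and 1 lower (at an unadjusted p under 0.05, 2 higher and 1 lower), and the median log2 fold change was 0.020. Of the 10 uncalled subunits, 2 had an adjusted p below 0.05, the larger being Chrna7 at 0.85, named after its values were seen. The lower one was Chrna9, a subunit of hair cells, with a mean of 5.46 ± 0.12 in Pax7-GFP and 6.48 ± 0.29 in ES cells (SD, n = 3 each). Chrna9 fell by 1.01 (limma, SE 0.15, adjusted p = 0.000651), just past the 2-fold minimum. It was not called without Pax7-GFP replicate 1 or replicate 3 (-0.98 each) or without ES replicate 1 (-0.85). The 5 muscarinic receptors, which act through G proteins, had 0 calls (at an unadjusted p under 0.05, 1 higher and 0 lower), with log2 fold changes from -0.12 to 0.22. The median signal of the nicotinic list was 4.86 to 5.27 on the Pax7-GFP arrays and 4.88 to 5.29 on the ES arrays. That of the muscarinic list was 4.74 to 4.865 and 4.56 to 4.63. These list medians lie below the array medians, and a gene at such levels that was not called cannot be read as absent or unchanged. Some members stood higher, such as Chrna7 with a mean of 7.32 in Pax7-GFP and 6.48 in ES cells.

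Proteins of the postsynaptic scaffold link the receptor clusters to the cytoskeleton and the basement membrane. Among 14 measured genes limma found 7 higher and 0 lower (at an unadjusted p under 0.05, 10 higher and 2 lower), with a median of 1.06. Sgca, a sarcoglycan of the dystrophin complex, averaged 9.11 ± 0.24 in Pax7-GFP and 5.65 ± 0.083 in ES cells (SD, n = 3 each), and so rose by 3.46 (limma, SE 0.13, adjusted p = 2.74e-07). Nes, the intermediate filament protein nestin, averaged 8.80 ± 0.18 in Pax7-GFP and 6.61 ± 0.046 in ES cells (SD, n = 3 each), and rose by 2.19 (limma, SE 0.11, adjusted p = 1.15e-06). Utrn, which encodes utrophin of the junction and was named after its values were seen, stood at 0.97 (limma, SE 0.095, adjusted p = 6.91e-05), short of 2-fold. Tested by limma against 2-fold, 4 of the 14 were called.

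In the synaptic cleft and basal lamina, 4 of 12 measured genes were higher and 0 lower (limma, at an unadjusted p under 0.05, 7 higher and 2 lower), with a median of 0.35. Lama2, the laminin chain of muscle basement membrane, averaged 10.47 ± 0.10 in Pax7-GFP and 5.53 ± 0.24 in ES cells (SD, n = 3 each), and rose by 4.94 (limma, SE 0.13, adjusted p = 5.08e-08). Lama4, a laminin chain that also occurs at the junction, was 8.67, 7.49 and 7.49 on the Pax7-GFP arrays, against 5.60, 5.85 and 6.01 on the ES arrays, and rose by 2.06 (limma, SE 0.30, adjusted p = 0.000641). Replicate 1 was the highest Pax7-GFP array for Lama4, as it was for 4 of the 5 fibroblast markers, whose part in its rise was not tested. Ache, the esterase that ends the signal, was named after its values were seen. It stood at 6.198, 6.283 and 6.187 on the Pax7-GFP arrays, against 6.003, 5.774 and 5.852 on the ES arrays, a difference of 0.35 (limma, SE 0.089, adjusted p = 0.0140) below 2-fold.

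Of the partners of MuSK signalling, 1 of 18 measured was higher and 3 were lower, with a median of -0.093. At an unadjusted p under 0.05 in limma, 5 were higher and 8 lower. Over all genes tested 7.34% were called higher and 7.15% lower, and with so few calls the counts are not read as a result about the list. Fyn, a kinase of the Src family, averaged 8.51 ± 0.027 in Pax7-GFP and 6.49 ± 0.11 in ES cells (SD, n = 3 each), and rose by 2.02 (limma, SE 0.086, adjusted p = 5.89e-07). Its relatives Yes1 and Src, named after their values were seen, fell by 1.74 and 1.01. Src is the nearest of the 3 lower genes to the 2-fold minimum, and the list had 2 lower genes without Pax7-GFP replicate 3, without ES replicate 2 and without ES replicate 3, as well as after quantile normalization and in the test against 2-fold. Nsf, a membrane fusion ATPase, averaged 7.71 ± 0.23 in Pax7-GFP and 9.65 ± 0.026 in ES cells (SD, n = 3 each), and fell by 1.94 (limma, SE 0.12, adjusted p = 4.38e-06).

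**Figure D4:**
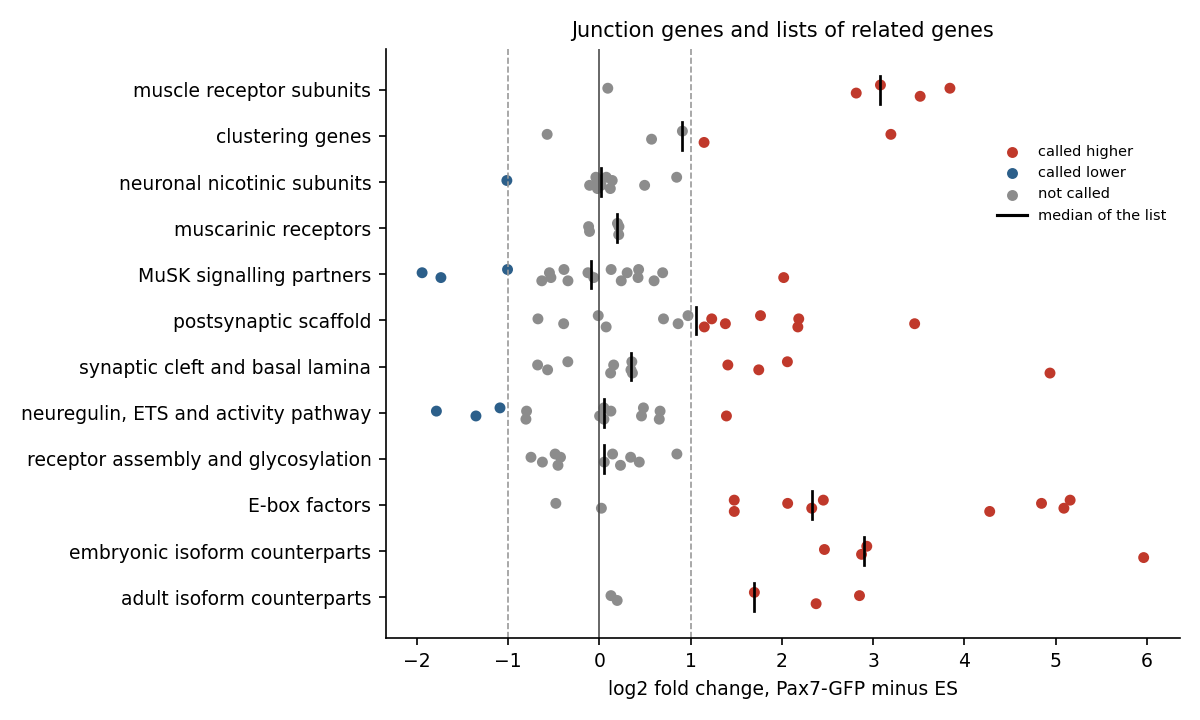
Log2 fold change, Pax7-GFP minus ES (horizontal axis), of the receptor subunits, the clustering genes and the members of 10 related lists (vertical axis). Each point is a gene, red if called higher, blue if called lower and grey if not called, dashed lines mark 2-fold, and black bars mark list medians, which run from -0.093 for partners of MuSK signalling to 3.08 for the muscle receptor subunits.

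Neuregulin, ETS factors and muscle activity are known to control receptor genes in innervated muscle. This list had 1 of 14 genes higher and 3 lower, with a median of 0.050, where 7.34% and 7.15% of all genes were called. At an unadjusted p under 0.05 in limma, 4 were higher and 5 lower. These few calls are not read as a result about the list. Hdac4, a transcriptional repressor linked to denervation in muscle, averaged 9.03 ± 0.22 in Pax7-GFP and 7.64 ± 0.078 in ES cells (SD, n = 3 each), and rose by 1.39 (limma, SE 0.12, adjusted p = 3.07e-05). The ETS factor Etv4 averaged 5.76 ± 0.19 in Pax7-GFP and 7.55 ± 0.055 in ES cells (SD, n = 3 each), and fell by 1.79 (limma, SE 0.11, adjusted p = 4.31e-06). Gabpa, a subunit of the factor that binds the N-box, and the ETS factor Etv5 stood at -0.80, short of 2-fold. Gabpb1, another subunit of that factor, went the other way, at 0.46 (limma, SE 0.095, adjusted p = 0.00453), also short of 2-fold. Gabpa, Gabpb1 and Etv5 were named after their values were seen. Genes of receptor assembly and glycosylation, several of them mutated in human congenital myasthenic syndromes, had 0 of 11 called (limma, at an unadjusted p under 0.05, 4 higher and 5 lower), with log2 fold changes from -0.75 to 0.85.

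Factors that bind E-boxes or block that binding were higher in 9 of 11 cases and lower in 0 (limma, at an unadjusted p under 0.05, 9 higher and 1 lower), with a median of 2.33. Myf5, Myod1 and Myog of this list, and Actc1 below, are also among the skeletal muscle markers given above, so their rises are not separate observations. Myf5, a determination factor of muscle, averaged 10.86 ± 0.12 in Pax7-GFP and 5.70 ± 0.12 in ES cells (SD, n = 3 each). Myod1, another of these factors, averaged 11.08 ± 0.11 in Pax7-GFP and 5.98 ± 0.37 in ES cells (SD, n = 3 each). The genes called higher include blockers of the binding, Id1 at 1.48, Id2 at 2.33 and Id3 at 1.48. A further blocker, Id4 at -0.48, and Tcf3 at 0.023 were not called. The Id genes and Tcf3 were named after their values were seen. Of structural genes used in embryonic muscle, 4 of 4 measured rose, with a median of 2.90, led by Actc1, cardiac actin, at 5.97 (SE 0.16) and Tnnt2, cardiac troponin T, at 2.93 (SE 0.23). Of those used in adult muscle, 3 of 5 measured rose, with a median of 1.70, among them Acta1, skeletal actin, at 2.85 (SE 0.22) and Tnnt3, fast troponin T, at 2.38 (SE 0.13). Among the adult myosins Myh1 rose by 1.70 (limma, SE 0.24, adjusted p = 0.000616), while Myh2 at 0.13 and Myh4 at 0.20 were not called. Over all 6 arrays Myh2 stood at 4.72 to 5.03 and Myh4 at 3.95 to 4.53. Both lie below the array medians, so neither can be read as absent or unchanged. These myosins were picked out with their values known. Myosin heavy chains share sequence and their probe sets may not separate them, and the difference between both lists was not tested.

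Markers of the nerve were examined because Agrn is made by both nerve and muscle. Of 10 motor neuron and neural markers, 1 was higher and 3 were lower, with a median log2 fold change of -0.074. Isl1 was the higher one, at 1.64 (limma, SE 0.15, adjusted p = 4.97e-05). Those lower were Tubb3 at -4.30, Stmn2 at -5.51 and Nefl at -4.85, and the other 6 were not called. The mean log2 level of the list, on which the lower genes weigh, was 5.25 to 5.47 on the Pax7-GFP arrays. On the ES arrays it was 6.64 to 6.69. Chat, which makes acetylcholine, stood at 5.57, 5.51 and 5.61 on the Pax7-GFP arrays, against 5.58, 5.46 and 5.66 on the ES arrays, and these overlapped. The 4 Schwann cell and crest markers measured had 0 calls (limma, at an unadjusted p under 0.05, 1 higher and 0 lower). The part of the neural markers in the Agrn values was not tested.

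The genes whose 6 array values were most like those of a receptor gene were found by the root mean square difference after each gene had been centred on its own mean over the 6 arrays. For Chrng they were P3h2, Arhgef2, Frmd3, Trim55 and Drp2, at 0.11, 0.11, 0.12, 0.14 and 0.14 on the log2 scale. Their log2 fold changes lay between 2.82 and 2.96. For Chrna1 they were Ano5, Olfml2b, Heyl, Rhoj and Egr3, at 0.26, 0.26, 0.28, 0.28 and 0.31, with log2 fold changes from 3.59 to 4.03. The group difference dominates this measure, and among 22180 genes some lie close to any profile.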

How the data were processed

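Total RNA went through a double amplification before hybridisation, and sorting gates were set on undifferentiated cultures, per the labels' protocols. The authors' deposited values are RMA signals on the log2 scale, 1 per probe set and array, made in R 2.12.1 per the submitters' processing notes. The sources used here give neither RMA's options nor a genome build. RMA compresses folds near background, and double amplification can favour 3' ends. Groups and replicate numbers came from the titles. The titles call the replicates biological, without saying whether they were separate cultures, clones or differentiations, so the p-values reflect how far these samples spread, whatever the source of that spread.

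Of 41345 rows, 23521 carried 1 symbol in GEO's platform annotation. A gene was represented by its probe set with the highest mean, with no filter on dim genes. The comparison of Pax7-GFP with ES used limma 3.58.1 in R 4.3.3 (lmFit, eBayes, two-sided, Benjamini-Hochberg over 22180 genes). A call needs a log2 fold change of 1 or more in size beside an adjusted p below 0.05. The fitting step was tested on simulated data.

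The 10 genes and the 10 related lists (105 of 111 genes measured) were chosen with earlier results of these data known. The rule named all 10 genes, the 2 largest called rises and the largest called fall of each list, and the 5 genes nearest to Chrng and to Chrna1. Alternatives changed the scaling, a floor, a dim-gene filter, the probe set summary, the unit tested, the replicate block, the weights of arrays, limma's prior, the threshold and the arrays included.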

Additional observations from a re-analysis of the deposited data

How the results depend on the processing

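Between 5 and 7 of the 10 genes were called higher and 0 lower under every alternative run, with 6 in the fit with a replicate block. A limma test against a 2-fold difference no longer called Rapsn (1.15, adjusted p = 0.813). It also left 4 higher genes in the postsynaptic scaffold list, 0 higher and 1 lower in the neuregulin list, and 0 lower in the neuronal nicotinic list, by construction a stricter threshold, and it called 879 genes higher and 834 lower over the table, against 1627 and 1585. Leaving out dim genes left 0 lower neuronal nicotinic genes and dropped Chrne from the fit. Without single arrays Lrp4 lay between 0.80 and 1.05, called at the top, and the neuronal nicotinic list had 0 to 1 lower gene. Hdac4 and Chrna9 also lost their calls against 2-fold. The other 200 of 202 values of the 10 genes, their counts and the gamma against epsilon difference were scored as unchanged. For a gene this meant the same direction and call, so Dok7 and Agrn passed where their adjusted p was not under 0.05. For the count of higher genes it meant staying near 6, so 5 and 7 passed. The gamma against epsilon difference kept its direction and lay between 2.67 and 2.81 (2.72 with the replicate block). Alternatives for the related lists were added after seeing the data. Deviations from the group mean correlated over genes at r = -0.11, -0.22 and 0.0069 for same-numbered samples. For samples of unlike number r ran from -0.077 to 0.20. With 3 arrays a group these correlations constrain one another and cannot decide whether the numbers mark pairs. The main fit did not take them as pairs. The block changed no call among the 10 genes.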
